A study of Mus musculus with 10 samples.

Results

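The enzymes that join glutathione, glucuronic acid or sulfate to other molecules were examined in the ileum of mice after repeated mild social defeat. Members were all genes whose symbol, as the only symbol of a probe set in the platform annotation, began with Gst and a letter, Mgst and a digit, Ugt1, Ugt2, or Sult and a digit. These were 45 of the 18193 genes with such a probe set, and 32 of the 13666 genes tested. They comprised 21 Gst genes (18 tested), 3 Mgst genes (3 tested), 8 Ugt2 genes (4 tested) and 13 Sult genes (7 tested). No Ugt1 gene had a probe set of its own (0 genes), and probe sets that name several genes are described apart.

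Transcripts were measured in the terminal ileum of 10 male C57BL/6JJmsSlc mice, whose age the labels give as 7 weeks, with 1 Affymetrix array per mouse, so that n counts mice. Each mouse was housed singly on AIN-93G diet, and tissue was collected after a fast of 3 h. The 5 control mice were unstressed. The 5 stressed mice had been placed as intruders with aggressive ICR males over 10 days of subchronic mild social defeat, with physical contact of 5 min on the first day that became 0.5 min briefer daily and ended at 0.5 min. Values are log2 values of robust multi-array average (RMA), and a difference is stressed minus control on that scale with its standard error (SE). The comparison asks which conjugating enzymes differ in the ileum after this stress.

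Conjugation is the step of detoxification that makes a molecule water-soluble so that it can leave the cell. Cytosolic glutathione S-transferases (Gst) and the membrane-bound Mgst enzymes attach glutathione to reactive compounds, including products of lipid peroxidation. UDP-glucuronosyltransferases (Ugt) use UDP-glucuronate to conjugate bilirubin, steroids, bile acids and drugs in the endoplasmic reticulum. Cytosolic sulfotransferases (Sult) use the sulfate donor PAPS on phenols, steroids and amines. The intestinal epithelium is a site of all these reactions, and transporters of the Abcc and Abcg families carry the products out of the cell.

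Many of the genes lie in clusters. In the RefSeq gene table of GRCm38.p6, Gstm1 to Gstm7 are 7 neighbours on chromosome 3 and Gstt1 to Gstt4 are 4 neighbours on chromosome 10. The 8 Ugt2 genes with Sult1b1, Sult1d1 and Sult1e1 form a run of 11 members on chromosome 5. Close paralogs share sequence, so a probe set may also take up transcripts of a neighbour. The probe sets used for Gstm1, Gstm3, Gsto1 and Ugt2b34 have suffixes by which the manufacturer marks possible cross-hybridisation, and their values are uncertain in that respect.

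The promoters of Ugt2b5, Gstk1 and Sult1a1 are shown because the results below turn on these genes, the first 2 by an unadjusted p under 0.05 with control mouse 1 left out and the last by its range over mice. Each run covers 250 bases before to 50 bases after the gene's start site, read along the gene's own strand, from RefSeq on GRCm38.p6. Ugt2b5 lies on the minus strand at chr5:87140291-87140590, Gstk1 on the plus strand at chr6:42245685-42245984, and Sult1a1 on the minus strand at chr7:126676369-126676668. Capitals mark the letters GTTAAT, a core of the sites bound by the intestinal and hepatic factor HNF1. Gsta4 is named only.
Ugt2b5: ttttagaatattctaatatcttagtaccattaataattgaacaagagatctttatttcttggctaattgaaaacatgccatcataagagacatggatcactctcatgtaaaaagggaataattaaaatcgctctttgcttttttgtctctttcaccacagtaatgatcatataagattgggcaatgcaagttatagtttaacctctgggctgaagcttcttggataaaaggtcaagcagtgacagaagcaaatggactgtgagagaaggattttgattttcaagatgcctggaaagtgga
Gstk1: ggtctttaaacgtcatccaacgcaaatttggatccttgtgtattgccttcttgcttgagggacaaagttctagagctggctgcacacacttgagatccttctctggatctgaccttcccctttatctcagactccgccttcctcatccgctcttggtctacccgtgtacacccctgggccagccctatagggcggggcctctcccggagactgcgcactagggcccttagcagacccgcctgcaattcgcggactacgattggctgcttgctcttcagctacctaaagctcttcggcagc
Sult1a1: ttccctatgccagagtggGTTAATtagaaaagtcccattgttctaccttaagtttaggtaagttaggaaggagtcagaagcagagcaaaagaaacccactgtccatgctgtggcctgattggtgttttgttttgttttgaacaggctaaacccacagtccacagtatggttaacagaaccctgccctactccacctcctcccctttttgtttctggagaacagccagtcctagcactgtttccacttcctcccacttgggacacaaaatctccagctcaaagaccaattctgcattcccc

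The promoter table held 41 of the 45 member genes with 54 promoters, and 3 motifs were searched on both strands. GTTAAT was found in 4 of the 54 promoters (of Gsta3, Sult1a1, Sult1d1 and Ugt2a3), beside 7.1% of all 32851 promoters in the table. In Sult1a1 its first base lay at -232 from the start site. TGACNNNGC, the core of the antioxidant response element through which Nrf2 acts, was found in 4 of the 54 (of Gsta3, Gstm5, Gstm7 and Mgst1), beside 12.4% of all promoters. TATAAA was found in 9 of the 54, in 8 genes, beside 13.6% of all promoters. A match describes the letters of this window and nothing else.

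The array of control mouse 1 stood apart from the other 9, with which it correlated across genes at 0.918 to 0.947. Fabp6, the bile acid binding protein that marks ileal enterocytes, was at 7.88 in control mouse 1 and at 13.88 to 14.10 in the other 9 mice. The mean over 11 enterocyte markers was 8.10 there and 11.41 to 11.88 in the others. Of the large intestine markers, Car1 was at 14.17 in control mouse 1, at 13.32 in stressed mouse 4 and at 4.95 to 7.41 in the other 8 mice, and Aqp8 was at 7.50, 7.26 and 4.15 to 4.49. The mean over the 6 large intestine markers above the floor was 9.42, 8.29 and 6.01 to 6.63 in the same order, and the posterior Hox genes Hoxb13, Hoxd12 and Hoxd13 were below it. As a sign of RNA quality, the 3' to 5' ratio was read from control probe sets, in log2 units. It was 1.13 in stressed mouse 1, against 0.445 to 0.704 in the other mice. Results are therefore given with 10 arrays and with 9 arrays, the latter without control mouse 1. In bulk tissue, fewer cells of a type and less RNA per cell cannot be told apart.

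No conjugating enzyme passed the test, and most members, like most genes tested, differed little between stressed and control mice. In limma with Benjamini-Hochberg adjustment over all genes, 0 of 32 members were called at an adjusted p under 0.05 with 10 arrays, where 0% of all genes were called, and 0 of 32 with 9 arrays, where 0.798% were called. The smallest adjusted p of a member in limma was 0.705 with 10 arrays (Ugt2b36) and 0.0577 with 9 arrays (Gsta4). At an unadjusted p under 0.05, limma found 0 of 32 members with 10 arrays, against 7.82% of all genes (3.86% higher and 3.96% lower in stressed mice). With 9 arrays it found 3 of 32 (9.38%), Gsta4, Ugt2b5 and Gstk1, all at higher values in stressed mice, against 18% of all genes (11.4% higher and 6.56% lower).

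The families differed in their medians, which were not tested. The difference of the median member was -0.04 with 10 arrays and 0.09 with 9 arrays, beside 0.00 and 0.03 over all genes tested. The Gst and Mgst genes had medians of -0.08 and 0.05, of which the second became -0.01 when each array was centred on its median. The 4 Ugt2 genes had medians of 0.12 and 0.19, and all 4 lay above 0 in both comparisons. The 7 Sult genes had medians of 0.01 and 0.11, of which the first became -0.02 with centred arrays.

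Of the 32 members, 27 with 10 arrays and 25 with 9 arrays differed by less than 0.25 between groups. The same held for 11937 and 11417 of all 13666 genes tested, so small differences were not particular to the members. Differences lay above 0 in 14 of 32 members with 10 arrays, against 50.9% of all genes, and in 22 of 32 with 9 arrays, against 56.2%. With each array centred on its median these counts were 9 and 20. The sign of the difference was opposite in the 2 comparisons for 10 members, of which 9 lay below 0 with 10 arrays and above 0 with 9. The SE was smaller with 9 arrays in 29 of the 32.

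**Figure D1:**
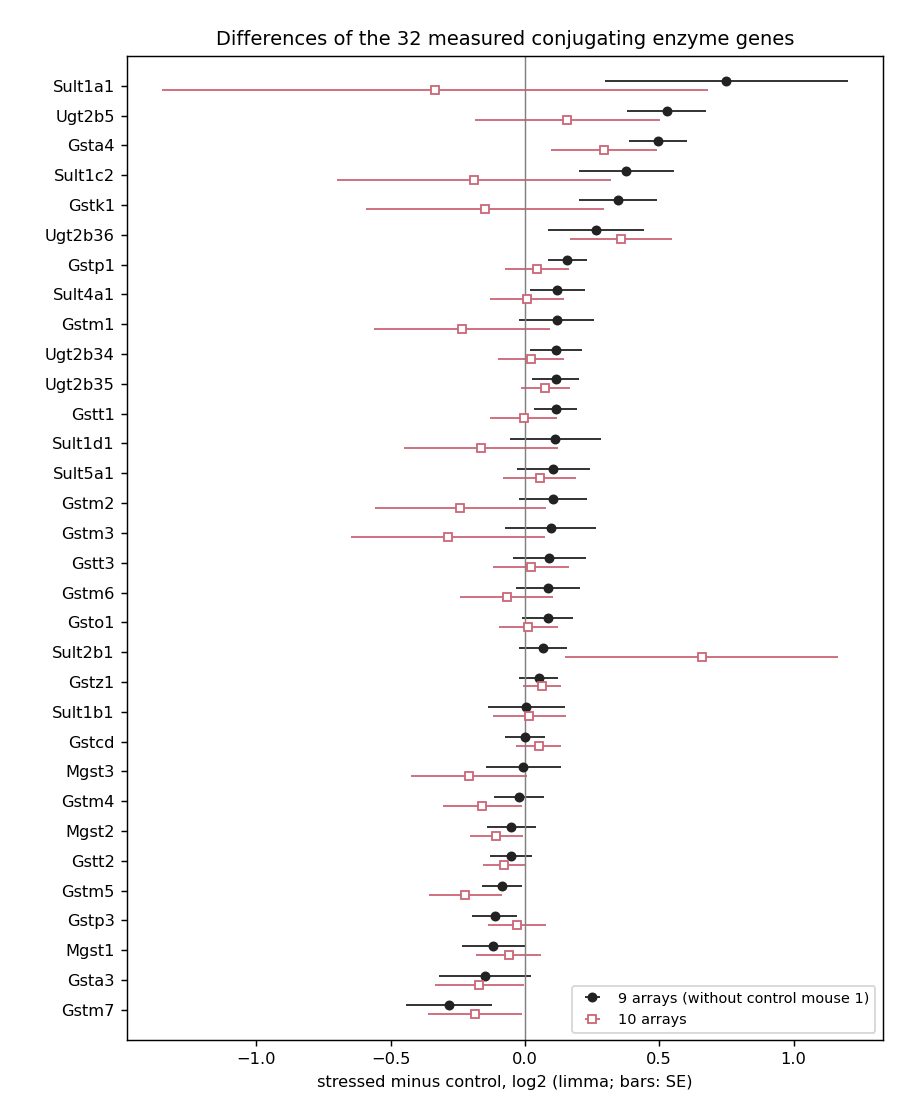
Difference between stressed and control mice (log2, horizontal axis) for each of the 32 tested genes, with bars for the SE from limma. Filled points are the 9 arrays without control mouse 1 and open squares all 10 arrays. The bars of most genes reach or lie near 0, and those of Sult1a1, Sult2b1, Sult1c2 and Gstk1 are widest with 10 arrays.

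Among the glutathione S-transferases, Gsta4, the alpha-class enzyme that conjugates the lipid peroxidation product 4-hydroxynonenal, came closest to the threshold. It was at 9.86 in control mouse 1 and at 8.70, 9.08, 8.66 and 9.01 in control mice 2 to 5. In stressed mice 1 to 5 it was at 9.24, 9.23, 9.42, 9.52 and 9.38. Every stressed mouse lay above control mice 2 to 5 and below control mouse 1. The difference with 9 arrays was 0.50 ± 0.11 (SE), a 1.41-fold higher level, with an adjusted p = 0.0577 in limma. With 10 arrays it was 0.29 ± 0.20 (adjusted p = 0.773). Gsta4 passed the threshold with 9 arrays in limma with a trended, robust variance (adjusted p = 0.0425) and with array weights (adjusted p = 0.033). Over all 20 settings tried with 9 arrays its adjusted p ran from 0.033 to 0.365 and its difference stayed above 0.

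Lymphocyte markers moved with the groups. The mean over B cell markers was 4.44 in control mouse 1, 5.28 to 6.55 in the other controls and 4.84 to 5.17 in stressed mice, and that over T cell markers 5.74, 5.88 to 6.88 and 5.55 to 5.91. With the B cell mean as a covariate, the difference of Gsta4 was 0.61 ± 0.17 with 9 arrays (adjusted p = 0.365 in limma) and 0.08 ± 0.19 with 10. That of Ugt2b5, described below, was 0.39 ± 0.24 with 9 arrays and -0.32 ± 0.25 with 10. Without control mouse 1 the B cell mean did not overlap between the groups, so a fit with 9 arrays cannot separate it from the group. The part of lymphocytes in the values of the members was not tested.

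Gstk1, the kappa-class enzyme of mitochondria and peroxisomes, turned from a lower to a higher mean in stressed mice when control mouse 1 was left out, without passing the threshold. It was at 10.20 in control mouse 1 and at 7.69, 7.69, 7.88 and 7.65 in the other controls. In stressed mice it was at 7.83, 7.83, 7.88, 8.51 and 8.31. Stressed mice 4 and 5 lay above control mice 2 to 5, and the other 3 stressed mice lay close to control mouse 4. The difference was -0.15 ± 0.44 with 10 arrays and 0.35 ± 0.14 with 9 arrays, with adjusted p values of 0.956 and 0.236 in limma. Without stressed mouse 4 as well it was 0.24 ± 0.12, at an unadjusted p = 0.0714. With the B cell mean as a covariate it was 0.09 ± 0.22 with 9 arrays and -0.81 ± 0.29 with 10 (unadjusted p = 0.018, adjusted p = 0.232).

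The pi-class enzyme Gstp1 and the omega-class enzyme Gsto1, a thiol transferase, spread little among the mice other than control mouse 1. Gstp1 was at 12.63 in control mouse 1, at 12.05, 12.06, 12.04 and 12.11 in the other controls and at 12.20, 12.05, 12.30, 12.30 and 12.26 in stressed mice. In 4 of the 5 stressed mice it lay above control mice 2 to 5, by small margins, and the difference with 9 arrays was 0.16 ± 0.07 (adjusted p = 0.287 in limma). Gsto1 was at 12.11, 11.90, 11.47, 11.83 and 11.78 in controls and at 11.71, 11.84, 11.96, 11.77 and 11.88 in stressed mice. The groups overlapped throughout, and its second probe set had the opposite sign with 9 arrays, -0.05 against 0.08.

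The other 17 Gst and Mgst genes that were tested differed by -0.28 (Gstm7) to 0.12 (Gstm1) with 9 arrays and by -0.29 (Gstm3) to 0.07 (Gstz1) with 10 arrays. None of these was at an unadjusted p under 0.05 in either comparison. Further probe sets gave other values, as for Gstm1, where 1 of 4 differed by 0.25 ± 0.11 with 9 arrays (unadjusted p = 0.0419, adjusted p = 0.292 in limma over probe sets). The 17 genes include Gstz1, which also serves in tyrosine breakdown, and Mgst2 and Mgst3, which can make leukotriene C4. For the probe set used for Gstm7 the control mice carried the spread, with values of 4.69 to 5.65 without control mouse 1 against 4.81 to 4.98 in stressed mice.

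Of the glucuronosyltransferases with a probe set of their own, Ugt2b5 had the largest difference with 9 arrays and Ugt2b36 with 10. Ugt2b5 was at 9.88 in control mouse 1 and at 7.86, 8.02, 8.17 and 8.08 in control mice 2 to 5. In stressed mice it was at 8.26, 8.23, 8.56, 8.77 and 8.97. As with Gsta4, all stressed mice lay above control mice 2 to 5 and below control mouse 1. The difference was 0.53 ± 0.15 with 9 arrays, 1.44-fold, with an adjusted p = 0.106 in limma, and 0.16 ± 0.34 with 10 arrays (adjusted p = 0.935). Gsta4 and Ugt2b5 were the 2 of 32 members (6.25%) whose groups did not overlap with 9 arrays, against 7.24% of all genes (4.51% with stressed mice higher and 2.72% lower). With 10 arrays this held for 0 of 32 members, against 2.28% of all genes (1.16% higher and 1.12% lower).

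The other 3 Ugt2b genes overlapped between groups. Ugt2b36 was at 6.76, 6.95, 7.38, 7.50 and 7.09 in controls and at 6.99, 7.40, 7.53, 7.55 and 8.00 in stressed mice, and control mouse 1 was the lowest of all. Its difference was 0.36 ± 0.19 with 10 arrays and 0.26 ± 0.18 with 9 arrays. Ugt2b34 was at 11.86, 11.45, 11.38, 11.44 and 11.29 in controls and at 11.24, 11.42, 11.59, 11.58 and 11.71 in stressed mice, with a difference of 0.12 ± 0.10 with 9 arrays. Stressed mouse 1 was the lowest of the 10 and control mouse 1 the highest. Ugt2b35 was at 8.55, 8.52, 8.13, 8.33 and 8.46 in controls and at 8.41, 8.42, 8.48, 8.47 and 8.58 in stressed mice, with a difference of 0.11 ± 0.09.

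The Ugt1a genes, among them the bilirubin-conjugating Ugt1a1, are made from alternative first exons joined to common last exons, and 3 probe sets name 8 of them together. The first was at 11.80 in control mouse 1, at 9.52 to 9.75 in the other controls and at 9.24 to 10.19 in stressed mice. The second was at 12.36, at 9.87 to 10.17 and at 9.89 to 10.53 in the same order, and the third at 13.10, at 11.44 to 11.80 and at 11.23 to 11.99. Control mouse 1 was thus the highest in all 3, and stressed mouse 4 the highest of the remaining mice. In limma over probe sets, a fit added after the data had been seen, the differences with 9 arrays were 0.10 ± 0.17, 0.14 ± 0.13 and 0.02 ± 0.14, with adjusted p values of 0.792, 0.626 and 0.955. With 10 arrays they were -0.32 ± 0.39, -0.33 ± 0.41 and -0.28 ± 0.29.

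In the probe set that names Gsta1, Gsta2 and Gm3776, control mouse 1 was not high. It was at 8.99, the lowest of the controls by a small margin and above stressed mouse 1. The probe set of Gsta2 alone, given below, was highest in control mouse 1. The other controls were at 9.74, 9.55, 9.11 and 9.18, and stressed mice at 8.83, 9.33, 9.47, 9.44 and 10.17. The groups overlapped, with a difference of 0.05 ± 0.23 with 9 arrays and 0.13 ± 0.22 with 10. The probe set of Ugt2a1 and Ugt2a2 was below the floor.

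**Figure D2:**
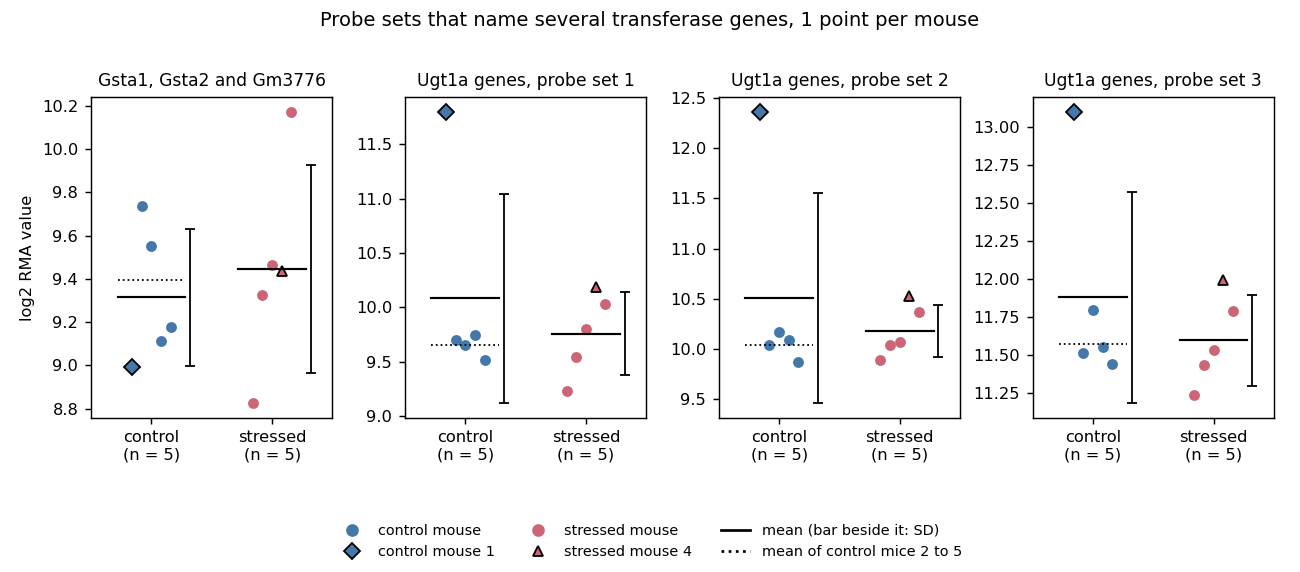
Log2 RMA values of the 4 probe sets above the floor that name several genes, with 1 point per mouse, the mean as a line and the SD as a bar beside it. Control mouse 1 (diamond) is the highest point in the 3 Ugt1a panels, at 11.80, 12.36 and 13.10, and the lowest control in the Gsta1, Gsta2 and Gm3776 panel.

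Among the sulfotransferases, Sult1a1, a phenol sulfotransferase, spread more widely than any other tested member. It was at 12.64 in control mouse 1 and at 7.16, 7.34, 7.32 and 7.04 in the other controls. In stressed mice it was at 7.47, 7.29, 7.38, 9.97 and 7.70. Control mouse 1 and stressed mouse 4, the mice with the high Car1 and Aqp8 values, were far above the other 8, which lay between 7.04 and 7.70. The difference was -0.33 ± 1.02 with 10 arrays and 0.75 ± 0.45 with 9 arrays (adjusted p = 0.957 and 0.405 in limma). Without stressed mouse 4 as well it was 0.25 ± 0.11 (adjusted p = 0.369). With the large intestine marker mean as a covariate it was 0.13 ± 0.17 with 9 arrays.

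Sult1c2 was at 9.59, 6.76, 6.56, 6.92 and 6.76 in controls and at 7.23, 7.04, 7.27, 7.60 and 6.50 in stressed mice. Apart from control mouse 1, 4 of the 5 stressed mice lay above every control and stressed mouse 5 below them, with a difference of 0.38 ± 0.18 with 9 arrays (adjusted p = 0.292 in limma) and -0.19 ± 0.51 with 10. Sult1d1, which sulfates catecholamines, was at 12.16, 10.77, 10.75, 10.98 and 10.60 in controls and at 10.25, 10.83, 11.07, 11.12 and 11.16 in stressed mice. Stressed mouse 1 was the lowest of all in this probe set, and the difference was 0.11 ± 0.17 with 9 arrays. In the second probe set of Sult1d1 stressed mouse 1 was at 9.71, within the 9.62 to 9.88 of control mice 2 to 5. There the difference was 0.15 ± 0.10 with 9 arrays.

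Sult1b1, which acts on phenols and thyroid hormones, was at 10.02, 10.10, 10.10, 10.34 and 9.78 in controls and at 9.65, 10.16, 10.22, 10.05 and 10.34 in stressed mice. Neither group stood higher, with a difference of 0.01 ± 0.14 with 9 arrays. Sult4a1 was at 5.73, 5.03, 5.44, 4.99 and 5.22 in controls and at 5.40, 5.14, 5.41, 5.24 and 5.26 in stressed mice, with a difference of 0.12 ± 0.10. Sult5a1 differed by 0.11 ± 0.13 and Sult2b1, which makes cholesterol sulfate, by 0.07 ± 0.09 with 9 arrays. With 10 arrays the difference of Sult2b1 was 0.66 ± 0.51, with control mouse 1 far below the rest.

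**Figure D3:**
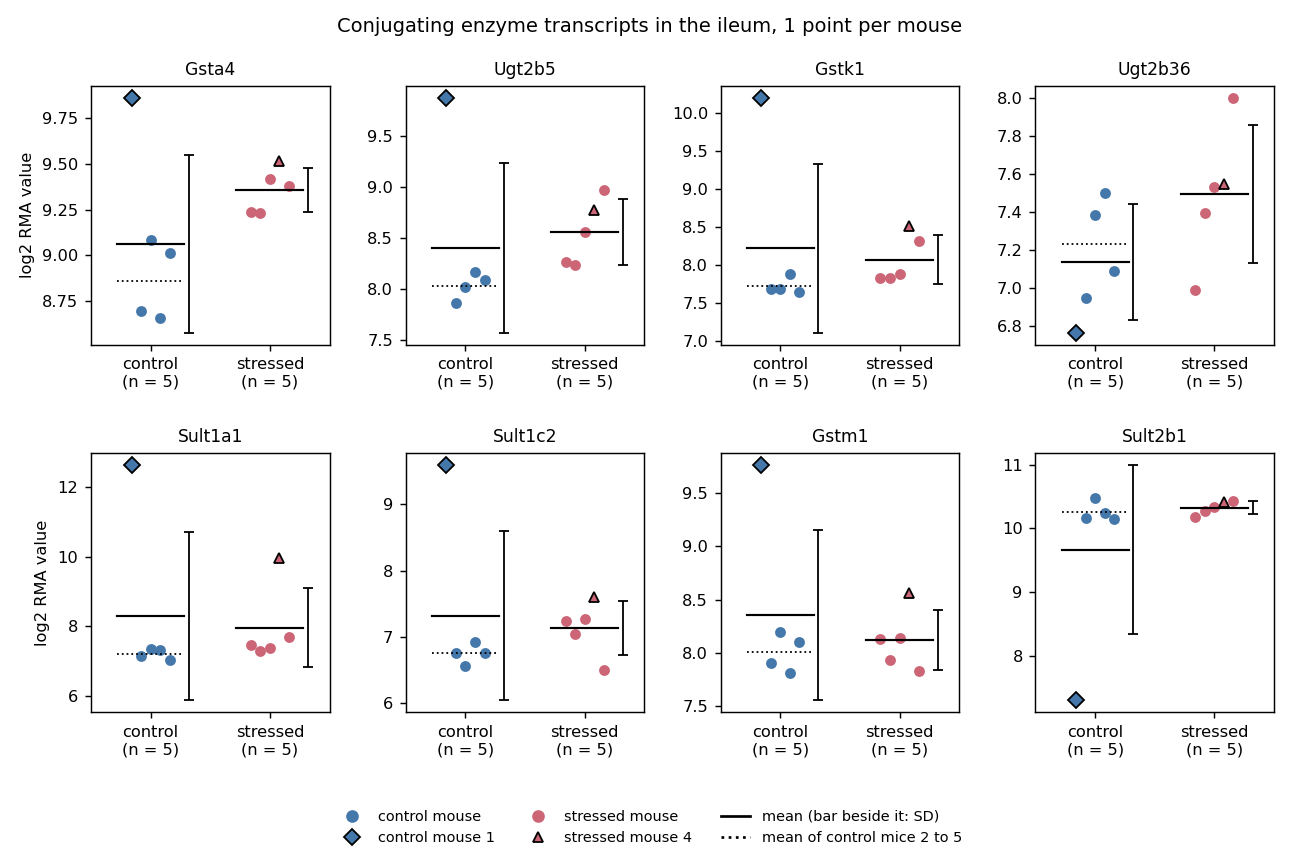
Log2 RMA values of 8 genes with 1 point per mouse (vertical axes differ), the mean as a line, the SD as a bar beside it and the mean of control mice 2 to 5 as a dotted line. In Gsta4 and Ugt2b5 the stressed mice lie above control mice 2 to 5, and control mouse 1 (diamond) is the highest point in 6 panels and the lowest in those of Ugt2b36 and Sult2b1.

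Control mouse 1 stood far from the other 9 mice in many of these enzymes. It lay over 1 log2 unit above the mean of the other 9 in 9 of 32 members (28.1%), against 3.7% of all genes: Gstk1, Gstm1, Gstm2, Gstm3, Mgst3, Sult1a1, Sult1c2, Sult1d1 and Ugt2b5. It lay over 1 unit below in 1 of 32 (3.12%), Sult2b1, against 3.38% of all genes. It was the highest of the 10 mice in 20 of 32 members (62.5%), against 34.6% of all genes, and the lowest in 4 (12.5%), against 18.6%. The genes named in this paragraph and the next outside the fixed rule were chosen after their values were seen.

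The largest gap above the mean of the other 9 was that of Sult1a1 at 5.01, followed by Sult1c2 at 2.63 and Gstk1 at 2.28. In the mu class, control mouse 1 was at 9.76 for Gstm1, 8.71 for Gstm2 and 8.52 for Gstm3. The other 9 mice were at 7.81 to 8.56, 6.78 to 7.48 and 6.34 to 7.30. These 3 probe sets stood apart in control mouse 1, while those of Gstm7 disagreed. That used here was at 4.70 in control mouse 1 and at 4.69 to 5.65 in the others, and the other at 5.61 and at 4.38 to 4.82. Sult2b1 was at 7.30 in control mouse 1 and at 10.15 to 10.47 in the other 9.

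Stressed mouse 4 was the highest of the 9 remaining mice in 9 of 32 members (28.1%), against 14% of all genes, and the lowest in 1 (3.12%), against 9.02%. This included 6 of the 9 members that stood over 1 unit higher in control mouse 1 (66.7%), beside 207 of 505 such genes overall (41.0%). The 6 were Gstk1, Gstm1, Gstm2, Gstm3, Sult1a1 and Sult1c2. Stressed mouse 1, the mouse with the high 3' to 5' ratio, was the lowest of the 9 in 8 of 32 members (25%), against 13.5% of all genes. The part of large intestine markers and of RNA quality in these values was not tested beyond the covariate fits.

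**Figure D4:**
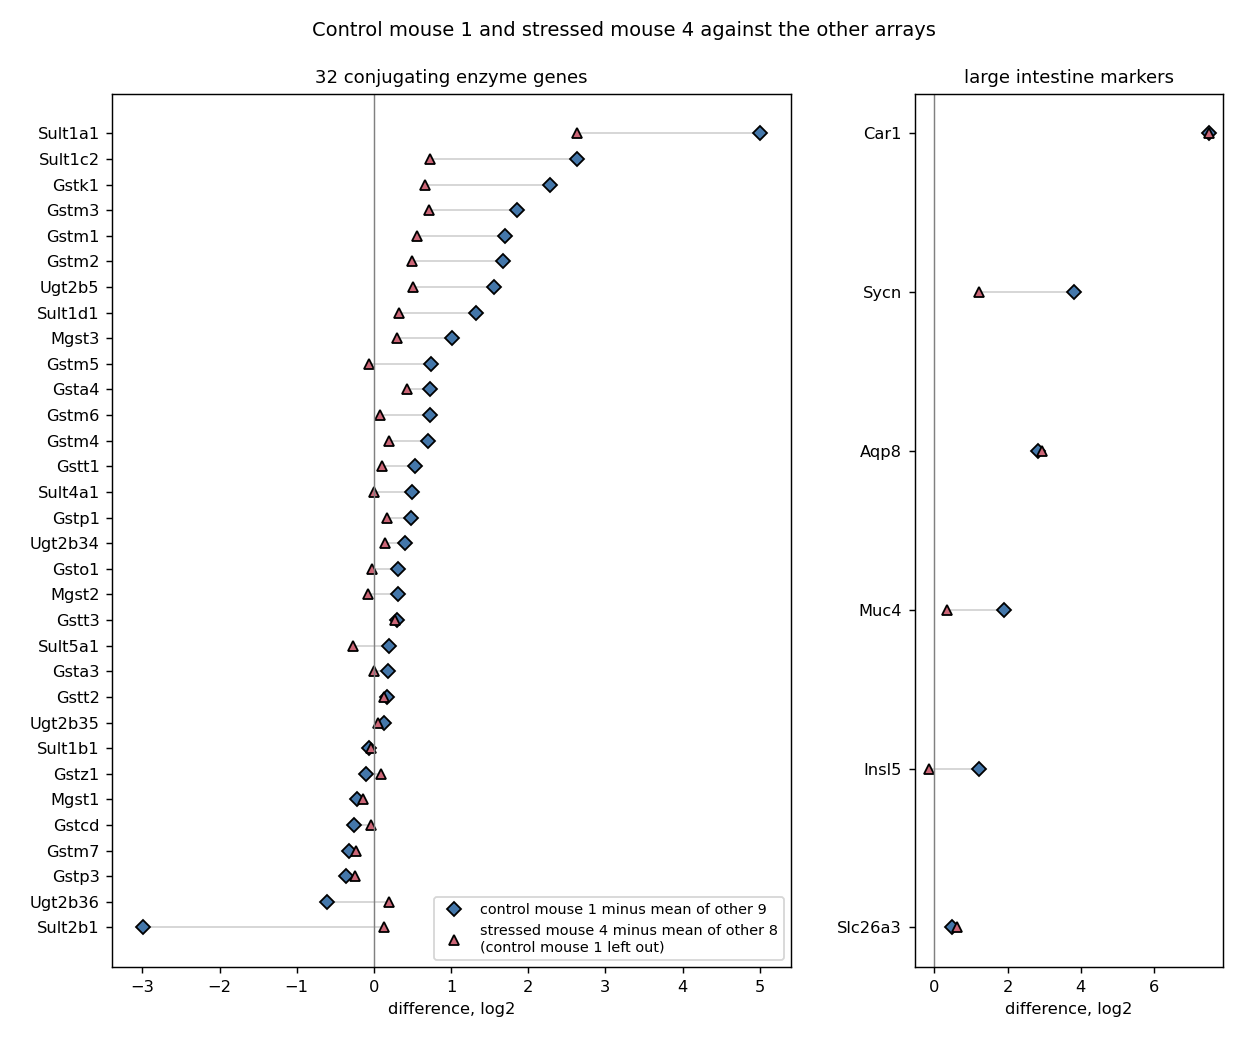
Difference of control mouse 1 from the mean of the other 9 mice (diamonds) and of stressed mouse 4 from the mean of the other 8 (triangles, control mouse 1 left out), on the log2 scale, for the 32 tested genes and for 6 large intestine markers. Sult1a1 has the largest shift of both mice among the 32 genes, 5.01 and 2.64, and Car1 the largest among the markers.

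A further 13 members were below the floor of 4.15, the level under which the lowest 40 percent of probe sets lie, and were not tested. They were Gsta2, Gsto2, Gstt4, Ugt2a3, Ugt2b1, Ugt2b37, Ugt2b38, Sult1c1, Sult1e1, Sult2a2, Sult2a8, Sult3a1 and Sult6b1. Sult1e1, which sulfates estrogens, was at 1.80 to 2.13 in all 10 mice. Gsta2 was at 6.45 in control mouse 1 and at 3.16 to 4.11 in the other 9, and Ugt2b1 was at 3.16 and at 1.77 to 2.09.

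Further lists held genes for the supply of cosubstrates, the export of conjugates, regulators, Nrf2 targets, phase I partner enzymes and other conjugating enzymes. Over all these lists limma called 0 genes in either comparison. In other settings it called 6 of them (Gsr, Abcb1a, Fmo5, Slc26a2, Abcc2 and Chac1), each in 1 to 4 of the settings with 9 arrays. Counts in these lists with 9 arrays stand beside 18% of all genes at an unadjusted p under 0.05 (11.4% higher and 6.56% lower) and 56.2% above 0. In glutathione supply, 11 genes were tested, with a median difference of 0.05 with 10 arrays and 0.13 with 9, beside 0.00 and 0.03 over all genes, and with 9 arrays 1 gene was higher and 2 lower at an unadjusted p under 0.05. Gsr, the reductase that regenerates glutathione, was at 8.69, 10.21, 9.80, 9.82 and 9.91 in controls and at 8.77, 9.67, 9.29, 8.88 and 9.15 in stressed mice. All stressed mice lay below control mice 2 to 5, and control mouse 1 was the lowest of all. Its difference was -0.79 ± 0.17 with 9 arrays (adjusted p = 0.0535 in limma) and -0.54 ± 0.27 with 10 arrays (adjusted p = 0.666). Over 20 settings with 9 arrays its adjusted p ran from 0.0146 to 0.422, and it was called in 4. With 10 arrays it was called with the enterocyte mean as a covariate (-0.82 ± 0.17, adjusted p = 0.0465 in limma). That mean was 8.10 in control mouse 1 and 11.41 to 11.88 in the other mice. The covariate thus mainly took up control mouse 1, and the fit lay near that with 9 arrays.

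Chac1, which degrades glutathione, was at 4.71, 7.00, 5.63, 4.88 and 6.77 in controls and at 4.92, 4.84, 4.95, 4.70 and 5.02 in stressed mice. Control mice 2, 3 and 5 were high and the rest of the mice alike, with a difference of -1.18 ± 0.35 with 9 arrays (adjusted p = 0.117 in limma). Over 19 settings with 9 arrays it ran from -1.58, on leaving out control mouse 4 (called, adjusted p = 0.0319), to -0.08 with the B cell mean as a covariate (adjusted p = 0.947). Gss, glutathione synthetase, differed by 0.30 ± 0.11 (adjusted p = 0.193) and Gclc, the catalytic subunit of the rate-limiting ligase, by 0.27 ± 0.13 (adjusted p = 0.314).

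In UDP-glucuronate supply, 5 genes were tested, with a median of -0.20 with 10 arrays and 0.06 with 9, of which the latter became -0.01 with centred arrays. Ugdh, the dehydrogenase that makes UDP-glucuronate, was at 12.42 in control mouse 1 and at 10.14 to 11.11 in the others, and differed by 0.18 ± 0.16 with 9 arrays. Ugp2 differed by 0.18 ± 0.10 and the transporter Slc35d2 by 0.06 ± 0.11. Gusb, the glucuronidase that removes the sugar, differed by -0.21 ± 0.09 in both comparisons (unadjusted p = 0.0356 with 10 arrays and 0.0414 with 9, adjusted p = 0.6 and 0.256 in limma).

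In sulfate and PAPS supply, 7 genes were tested, with medians of 0.09 with 10 arrays and 0.20 with 9. Slc26a2, a sulfate transporter, was at 11.01, 10.56, 10.63, 10.56 and 10.63 in controls and at 10.89, 10.90, 10.84, 11.10 and 11.01 in stressed mice. All stressed mice lay above control mice 2 to 5, with a difference of 0.35 ± 0.07 with 9 arrays (adjusted p = 0.0535, and 0.0338 to 0.388 over 20 settings) and 0.27 ± 0.10 with 10 arrays (adjusted p = 0.535 in limma). Papss2, which makes PAPS, was at 11.52 in control mouse 1 and 10.80 in stressed mouse 4, against 9.71 to 10.06 in the other 8, and differed by 0.28 ± 0.16 with 9 arrays. Slc35b3, which carries PAPS into the Golgi, differed by -0.23 ± 0.10 and Slc26a3 by 0.21 ± 0.13.

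Among the 10 tested exporters of conjugates, the median was 0.21 with 10 arrays and 0.23 with 9, and with 9 arrays 5 genes were higher and 1 lower at an unadjusted p under 0.05. Abcc2, the apical pump for glutathione and glucuronide conjugates, was at 3.52, 6.57, 6.67, 7.22 and 7.50 in controls and at 7.52, 7.41, 8.20, 8.33 and 8.75 in stressed mice. Control mouse 1 was the lowest, and only stressed mouse 2 overlapped with the controls. The difference was 1.05 ± 0.28 with 9 arrays (adjusted p = 0.0918) and 1.75 ± 0.64 with 10 arrays (adjusted p = 0.536 in limma). Abcb1a, a P-glycoprotein for drugs, was at 11.80 in control mouse 1 and at 10.09 to 11.22 in the other controls. Stressed mice were at 10.93 to 12.22. Its difference was 1.09 ± 0.27 with 9 arrays (adjusted p = 0.0814, but 0.0433 without control mouse 5 and 0.0459 without stressed mouse 2). With 10 arrays it was 0.83 ± 0.34 (adjusted p = 0.596 in limma). Abcg2 differed by -0.36 ± 0.14 and Slc51a, a subunit of the basolateral bile acid and steroid exporter, by 0.23 ± 0.08.

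Of 13 tested regulators of these enzymes, 12 lay above 0 with 9 arrays (10 with centred arrays, and 11 with 10 arrays). Their medians were 0.08 with 10 arrays and 0.11 with 9, and 3 were at an unadjusted p under 0.05 with 9. Ppara, the fatty acid receptor, was at 7.88, 6.63, 6.52, 6.96 and 6.50 in controls and at 7.25, 6.94, 7.10, 7.62 and 7.17 in stressed mice, a difference of 0.56 ± 0.14 (adjusted p = 0.0746 in limma). Nfe2l2, which encodes Nrf2, was at 11.17 in control mouse 1, at 9.84 to 10.00 in the other controls and at 10.06 to 10.39 in stressed mice, a difference of 0.30 ± 0.08 (adjusted p = 0.0999). Both were highest in control mouse 1, and with 10 arrays they differed by 0.32 ± 0.25 and 0.05 ± 0.23. Nr1i2, the pregnane X receptor, differed by 0.17 ± 0.07 and the bile acid receptor Nr1h4 by -0.16 ± 0.09.

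Of 10 tested target genes of Nrf2, 4 lay above 0 and 6 below with 9 arrays, with a median of -0.01 and 0 at an unadjusted p under 0.05. The smallest p values were those of Gclc, given above, Gclm at 0.22 ± 0.12, Ephx1 at 0.23 ± 0.13 and Cbr3 at 0.24 ± 0.16. Cbr3, a carbonyl reductase, was at 8.10 in control mouse 1 and 6.44 in stressed mouse 4, against 5.53 to 5.97 in the other mice.

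Among 15 tested phase I partners, which expose the groups that are then conjugated, 14 lay above 0 with 9 arrays and 12 with 10, with medians of 0.22 and 0.18, and 2 were at an unadjusted p under 0.05 with 9. Fmo5, a flavin monooxygenase, was at 9.30 in control mouse 1, at 8.70 to 9.19 in the other controls and at 9.39, 9.22, 9.72, 9.92 and 9.88 in stressed mice. Stressed mice lay above control mice 2 to 5, and control mouse 1 within their range, with a difference of 0.68 ± 0.15 with 9 arrays (adjusted p = 0.0636, but 0.0476 with a trended, robust variance and 0.0308 without stressed mouse 2) and 0.61 ± 0.16 with 10 (adjusted p = 0.351 in limma). Cbr1 differed by 0.38 ± 0.13, Ces2a by 0.47 ± 0.24 and Aldh1a1, which oxidises retinal, by 0.22 ± 0.12.

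Other conjugating enzymes, chiefly methyl- and acetyltransferases, comprised 11 tested genes with medians of -0.03 with 10 arrays and 0.05 with 9, the latter -0.02 with centred arrays. As3mt, the arsenic methyltransferase, was at 7.22, 7.40, 7.20, 7.36 and 7.37 in controls and at 7.45, 7.65, 7.60, 7.48 and 7.64 in stressed mice. Its groups did not overlap with 10 arrays either, with a difference of 0.25 ± 0.08 (adjusted p = 0.423 in limma). Inmt was at 7.46 in control mouse 1 and 7.60 in stressed mouse 4, against 5.32 to 6.34 in the other mice, and differed by 0.75 ± 0.30 with 9 arrays. Nnmt differed by 0.12 ± 0.10 and Nat1 by -0.13 ± 0.12.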

How the data were processed

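The authors deposited 1 table of log2 values made with RMA, per the submitters' processing notes, for 10 arrays of 3'-labelled RNA (100 ng per mouse, per the labels' protocols). RMA corrects background, quantile-normalizes arrays and summarises probe sets, so a change in total RNA cannot be seen and low genes are compressed. Neither its software nor the genome build is stated in the labels. Base 2 was taken from the range of the values (1.22 to 14.37). Array number limits the precision.

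The lowest 40 percent of probe sets by mean over the arrays were left out (floor 4.151). Of 45101 probe sets, 34945 named 1 gene, and a gene took its probe set with the highest mean. Groups were compared with limma 3.58.1 in R 4.3.3 (lmFit, eBayes), tested on simulated data, and p-values were adjusted by Benjamini-Hochberg over 13666 genes. The alternatives changed the filter, probe set, scaling, variance model, weights, covariates (marker means, 3' to 5' ratio), replicate block and mice. The fit over probe sets was added after the data were seen.

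Members and gene lists were chosen with earlier results of these data known. The naming rule gave all values of members at an unadjusted p under 0.05 in either comparison, filled to 3 per family by p with 9 arrays, with the 2 of highest mean per family, and up to 4 genes per pathway list by p with 9 arrays.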

Additional observations from a re-analysis of the deposited data

Results flagged for a closer look

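A mouse's value was singled out where its gap to the nearest mouse of its group was large against the range of the group (Dixon's test at the 95% level). Over the 32 tested genes and the 4 probe sets that name several genes, 108 groups were tested and 18 values were singled out. Chance singles out about 1 group in 20. Of the 18, 16 belonged to control mouse 1, 1 to stressed mouse 1 and 1 to stressed mouse 4. Dixon's test was not run over all genes, so whether these values are particular to the members was not tested. Control mouse 1 was the highest of the 10 mice in 34.6% of all genes and the lowest in 18.6%.

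Control mouse 1 was singled out above the other controls in Gstk1 (10.20), Gstm1 (9.76), Gstm2 (8.71), Gstm3 (8.52), Gstm5 (9.045) and Gstp1 (12.63). The same held for Sult1a1 (12.64), Sult1c2 (9.59), Sult1d1 (12.16), Ugt2b34 (11.86) and Ugt2b5 (9.88), and for the 3 Ugt1a probe sets (11.80, 12.36 and 13.10). It was far below the other controls in Sult2b1 (7.30). In Mgst1 the gap was small, with control mouse 1 at 11.52 against 11.77 to 11.83 in the other controls, and stressed mouse 1 was lower at 11.30. Among stressed mice, mouse 1 was high in Gstm5 (8.42) and mouse 4 in Sult1a1 (9.97).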

How the results depend on the processing

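No member passed the threshold with 10 arrays in any of 21 settings, and with 9 arrays only Gsta4 did, in 2 of 20: 1 member was called with a trended, robust variance (Gsta4 at 0.50, adjusted p = 0.0425 in limma) and 1 with array weights (0.54, adjusted p = 0.033). Leaving out each mouse in turn gave 0 called members in all cases.

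Counts moved more. With 10 arrays, limma called 2 genes in all with the mean of probe sets and 2 with centred arrays, 41 with array weights, 7 with the large intestine covariate and 170 with the enterocyte covariate, and 0 to 109 as each mouse was left out, the most without control mouse 1. With 9 arrays (109 genes) it called 242 with centred arrays, 169 with trended, robust variance, 3 with the large intestine covariate, 0 with the B cell covariate, where 1588 genes were at an unadjusted p under 0.05, 31 with the 3' to 5' ratio, and 6 to 154 as each mouse was left out, the fewest without stressed mouse 4. Members at an unadjusted p under 0.05 are given with the count over all 13666 genes in parentheses. With 10 arrays, 0 (1069) became 1 (1076) with centred arrays, 3 (2180) with array weights and 1 (1010) with the 3' to 5' ratio. They numbered 2 (1786) with the large intestine, 3 (2686) with the enterocyte and 10 (2052) with the B cell covariate. In the last, 1 member was higher and 9 lower, beside 997 and 1055 of all genes. Without each mouse they numbered 0 to 3 (693 to 2458). With 9 arrays (3) they numbered 5 with the enterocyte covariate, 6 with the 3' to 5' ratio, and 2 to 6 without each mouse, the most without stressed mouse 1. Centring also turned the split at an unadjusted p under 0.05 with 9 arrays from 1561 higher and 897 lower genes to 886 and 1578.

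Signs of small differences turned. Over all settings 22 of 32 members changed sign with 10 arrays and 18 with 9. With array weights and 10 arrays, Gstk1 was at 0.24, Sult1a1 at 0.53, Sult1c2 at 0.29 and Sult1d1 at 0.16. With the enterocyte covariate Gstk1 was at 0.40, Sult1a1 at 0.88, Sult1c2 at 0.47, Sult1d1 at 0.13 and Sult1b1 at -0.015, and with 9 arrays Sult1b1 at -0.14 and Sult1d1 at -0.073. Centring put Gsto1 at -0.020, Sult1b1 at -0.015, Sult4a1 at -0.024 and Ugt2b34 at -0.0085 with 10 arrays and Sult1b1 at -0.059 with 9. With the B cell covariate and 10 arrays, Gsto1 was at -0.060, Gstp1 at -0.090, Sult1b1 at -0.046, Sult4a1 at -0.11, Ugt2b34 at -0.12 and Ugt2b5 at -0.32. With 9 arrays Sult1b1 was at -0.29, Sult1d1 at -0.13 and Ugt2b36 at -0.047. With 10 arrays, the mean of probe sets put Gsto1 at -0.068, and the 3' to 5' ratio put Sult4a1 at -0.017.

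As each mouse was left out with 10 arrays, differences ran from -0.29 to 0.35 for Gstk1, -0.074 to 0.084 for Gsto1, -0.84 to 0.75 for Sult1a1, -0.055 to 0.13 for Sult1b1, -0.38 to 0.38 for Sult1c2, -0.28 to 0.11 for Sult1d1, -0.065 to 0.12 for Sult4a1 and -0.027 to 0.12 for Ugt2b34. The upper ends came without control mouse 1 except for Sult1b1. With 9 arrays they ran from -0.0071 to 0.14 for Gsto1 and -0.094 to 0.11 for Sult1b1. The cause of these shifts was not tested.

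Mouse numbers are shared by the groups. The deviations of same-numbered mice from their group means correlated at 0.13, 0.277, 0.00446, -0.297 and 0.0423. Only number 2 correlated best with its own number. Without control mouse 1, the correlations for numbers 2 to 5 were 0.111, -0.0778, -0.0065 and -0.134. These values showed no clear pairing by number, but so few pairs cannot exclude one. With the replicate number as a block, limma called 0 members and 0 genes with 10 arrays and 0 members and 95 genes with 9. At an unadjusted p under 0.05 it found 1 member with 10 arrays, beside 1011 of all 13666 genes. With 9 arrays it found 5 members, beside 2158 of all genes. With 9 arrays, stressed mouse 1 was alone in its block, so it added nothing to the differences of this fit. That of Gsta4 was 0.52, the same as without stressed mouse 1. With this block and 9 arrays 4 pathway genes named above were called in limma, Abcb1a (adjusted p = 0.0189), Abcc2 (0.0136), Fmo5 (0.0242) and Gsr (0.0287). Array signal near background compresses differences of low genes.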
